A study of Daphnia magna with 22 samples.

Results

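The GB and IL clones of the water flea Daphnia magna were compared under caloric restriction (CR), with 3 females of each clone, or 6 of the 22 RNA sequencing libraries of the series. The libraries were those with library numbers 17, 19 and 20 (GB) and 18, 21 and 22 (IL), which the sample titles mark with the letter of the low-food group. Each library was made from the body of 1 female within 24 h of egg laying, after the eggs had been taken out of her brood pouch. Females were 75 ± 2 days old, the same age in both clones and on both diets.

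GB (GB-EL75-69) was collected in a permanent lake in London and is described as long-lived. IL (IL-M1-8) stems from a Jerusalem pond that loses its water in summer and is described as moderately long-lived. Both were kept in one laboratory for over 5 years. The CR animals of both clones received 100000 algal cells per mL per day from birth, and spent 2 h a day in plain medium as handling control. Full-diet animals received 400000 cells per mL, and 16 of their libraries served for comparison: 6 control, 6 with beta-hydroxybutyrate (BHB) baths at 2.5 mM and 4 with nicotinamide mononucleotide (NMN) baths at 0.1 mM, equally divided between the clones. Each clone is a single isolate, so clone and site of origin cannot be told apart, and the 3 females of a clone are genetically alike.

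Daphnia reproduces by cloning while conditions are good, so that animals of one isolate share their genome and differ from another isolate at many loci. Such isolates differ in life span, in the timing of reproduction and in how they divide scarce food between growth, eggs and upkeep. Restricted food lengthens life in many animals, water fleas included. A comparison of 2 isolates on the same restricted diet asks which transcripts are set by the isolate, and whether the diet alters that setting.

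The CR libraries held 10320588 to 12683059 counted reads (11145530 ± 1332723 in GB and 11245694 ± 252038 in IL, SD, n = 3 each), within the 8503141 to 14353733 of all 22. The table gives unnormalized sense-strand read counts for 14657 gene models, of which 4965 had enough reads to test. Gene models are identified by protein accessions or by the IDs of gene predictions. The deposited table carries no gene names, and 0 of the IDs were found in the RefSeq gene table used here (assembly GCF_020631705.1). No function is given for any of them, and results are described by ID, abundance and count. In bulk RNA of whole bodies, fewer cells of a type and less RNA per cell cannot be told apart. Reads of both clones were counted over the same gene models, and how well the sequence of each clone matches these was not tested. A difference below is therefore a difference in counted reads.

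The females separated by clone before anything else. In a principal component analysis of the 6 CR libraries (log2 CPM, counts scaled to a library of 1000000 reads, with a prior count of 2), the first component held 70.1% of the variance and set the 3 GB females apart from the 3 IL females. Within GB the libraries were close to one another, with a median absolute log2 difference over the tested gene models of 0.19, 0.23 and 0.28 in the 3 pairs. The 9 pairs of a GB with an IL female had 0.40 to 0.51. Within IL, replicates 2 and 3 differed by 0.21, while replicate 1 differed from them by 0.34 and 0.34.

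**Figure D1:**
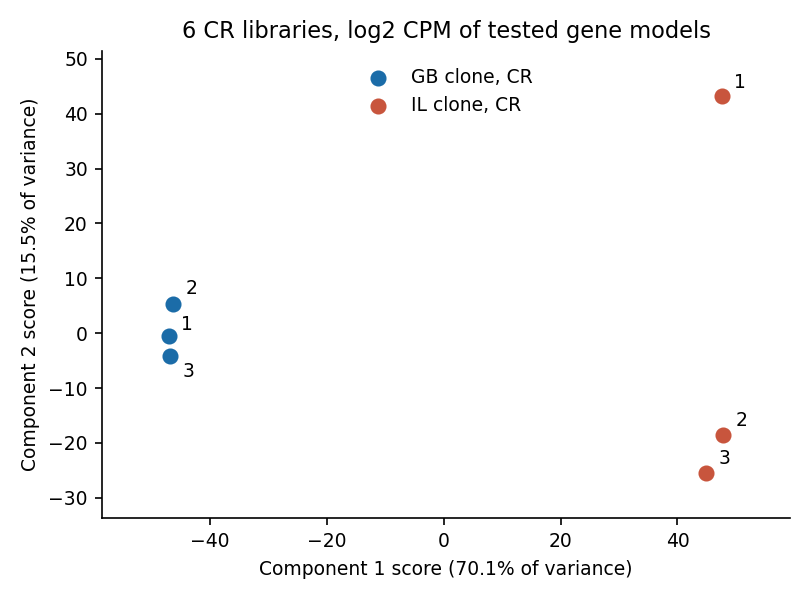
Scores of the 6 CR libraries on the first and second principal components of log2 CPM over 4965 gene models; numbers are replicates and colours are clones. GB females lie together on one side and IL females on the other, with IL replicate 1 far from IL replicates 2 and 3 on the second component (15.5% of the variance).

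IL CR replicate 1 thus stood apart from the other IL females under CR. It lay over 4-fold above both other IL females in 92 gene models and over 4-fold below both in 55, 147 in all, against 7 to 31 for each of the other 5 CR libraries. Of its 147 gene models 17 were among those that differed between the clones, against 1154 of all 4965 tested (23.2%). A wide spread within IL makes such a call less likely. Full-diet libraries deviated as widely. On the first component of deviations from group means (36.2% of that variance), IL CR replicate 1 scored 34.1. GB control replicate 2 scored 37.8, IL control replicate 3 scored 32.1 and IL BHB replicate 3 scored 30.4. At the other end GB control replicate 3 scored -39.1, IL control replicate 2 scored -23.3 and IL CR replicate 3 scored -22.4. Deviations are taken from group means, so a high score in 1 female goes with low scores in others of her group.

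The main question was which gene models differ between the clones when food is scarce. Of 4965 tested, 1154 differed (23.2%, edgeR quasi-likelihood test, Benjamini-Hochberg adjusted p under 0.05), of which 620 were higher (12.5%) and 534 lower (10.8%) in GB. All tested gene models together had a median log2 difference of -0.02 and a median absolute difference of 0.36, against 2.12 among those that differed. The 3 GB values and the 3 IL values did not overlap in 1118 of the 1154 (96.9%); among all tested gene models the values did not overlap in 37.2%. Without IL CR replicate 1 the count was 1031, with 556 higher and 475 lower in GB.

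Many of the differences were large. Of the 1154, 870 exceeded 2-fold, and 345 were over 4-fold higher and 257 over 4-fold lower in GB. In 121 of them one clone had no read in any of its 3 CR females (63 without reads in IL and 58 in GB), so that the fitted difference depends on the prior count. With these set at the limit that 3 reads over the 3 libraries allow, 344 gene models were over 4-fold higher and 256 over 4-fold lower, and the median absolute log2 difference was 2.11. A test against 2-fold as the smallest size of interest (edgeR glmTreat) passed 560 gene models (11.3%), 327 of them higher (6.59%) and 233 lower (4.69%) in GB.

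**Figure D2:**
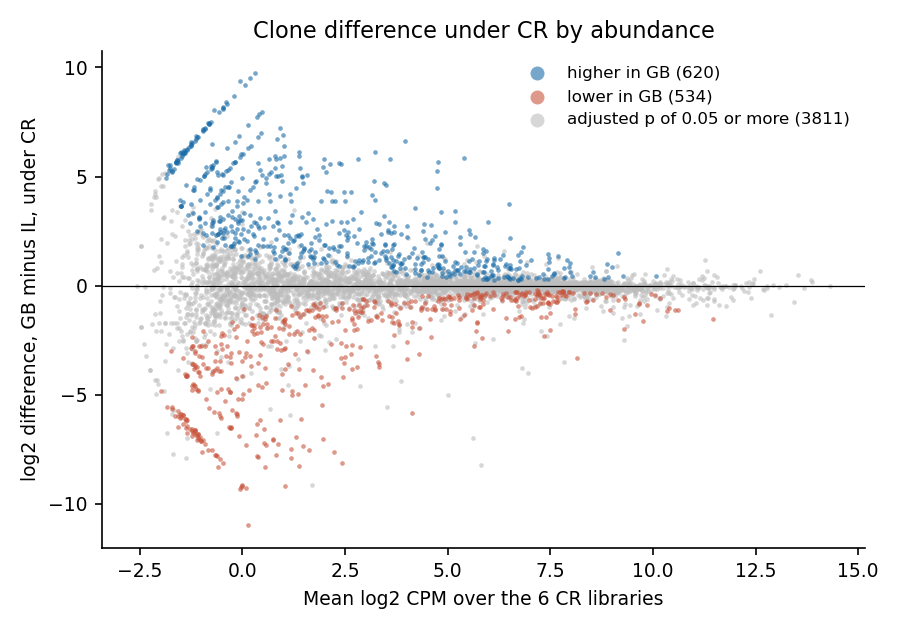
Log2 difference of GB minus IL under CR (vertical) against mean log2 CPM over the 6 CR libraries (horizontal) for the 4965 gene models tested; colours mark the 620 higher and 534 lower in GB. The differences widen toward low abundance, and the diagonal rows of points at the left are gene models with no read in one clone, whose size depends on the prior count.

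Clone differences past the threshold lay mostly among tested gene models of low and middle abundance. When the tested gene models were divided into 4 equal classes by mean CPM, 29.8% of the least abundant class differed, 31.9% of the second (1.87 to 18.2 CPM), 20.8% of the third (18.2 to 118.4 CPM) and 10.5% of the most abundant (118.7 CPM and above). In the most abundant class 40 gene models were higher and 90 lower in GB, whereas in the second class 224 were higher and 172 lower. The excess of lower values in the abundant class was also found with median-ratio size factors (40 higher, 92 lower), with the 50 most abundant rows left out of the library sizes (38 and 96) and without IL CR replicate 1 (39 and 85). The median absolute log2 difference among those that passed was 4.09 in the least abundant class and 0.61 in the most abundant.

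Few of the transcripts that dominate the libraries passed the test. Of the 10 and of the 20 most abundant gene models 0 differed in edgeR and 0 in DESeq2 (1 at an unadjusted p under 0.05 in each set), and of the 50 most abundant 1 differed in edgeR and 3 in DESeq2. The most abundant of all, KZS07197, had 19540, 17280 and 24360 CPM in GB and 22240, 20610 and 19150 CPM in IL. The ranges overlapped (log2 difference -0.02 ± 0.21 SE, edgeR adjusted p = 0.967). The exception among the 50 was KZS19569, singled out after its values were seen. It had 1830, 2076 and 1292 CPM in GB and 3004, 6300 and 5523 CPM in IL, so that every GB female lay below every IL female (log2 difference -1.51 ± 0.37 SE, edgeR adjusted p = 0.00498). In control it had 10160, 11590 and 11140 CPM in GB and 7346, 6230 and 9406 CPM in IL, with every GB female above every IL female (log2 difference 0.52 ± 0.36 SE, edgeR adjusted p = 0.319). Its clone difference under CR minus that in control was -2.03 ± 0.51 (log2, SE), which did not pass in edgeR (adjusted p = 0.312) and passed in DESeq2 (adjusted p = 0.0174).

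The 10 most abundant gene models took 13.7 ± 1.12% of the counts in GB and 13.4 ± 2.38% in IL (SD, n = 3 each). The difference of 0.327 percentage points was within the spread between females (two-sided exact permutation test, p = 0.9, where 3 against 3 animals cannot go below 0.1). Its sign and size rested on single females: it was -1.24 without IL CR replicate 1, 1.51 without IL CR replicate 3, -0.257 without GB CR replicate 3 and 0.949 without GB CR replicate 2. Single abundant gene models varied widely among females of 1 clone. KZS03189 had 6046, 11510 and 1476 CPM in GB and 6036, 8964 and 32630 CPM in IL (log2 difference -1.32 ± 0.70 SE, edgeR adjusted p = 0.211).

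Among gene models with at least 10 reads in each of the 6 females and an ID on a single row, the largest excess in GB was that of KZS08956. It had 342.7, 325.4 and 407.3 CPM in GB against 12.96, 2.77 and 2.99 CPM in IL. The highest IL value, that of replicate 1, was far below the lowest GB value. The log2 difference was 5.84 ± 0.61 (SE, edgeR adjusted p = 2.76e-06), and 6.96 without IL CR replicate 1. Next came KZR97674, with 153.0, 160.0 and 200.6 CPM in GB against 7.93, 3.03 and 2.55 CPM in IL (log2 difference 5.24 ± 0.41 SE, edgeR adjusted p = 7.38e-08; 5.93 without IL CR replicate 1). Both gene models were thus highest, within IL, in the female whose library stood apart. In control and with BHB, the IL females numbered replicate 1, which are other animals, were also the highest of their groups for both. They had 6.23 and 3.46 CPM for KZS08956, and 2.86 and 4.82 CPM for KZR97674. No label says that females with the same number share an origin.

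In the other direction, the gene prediction maker-falcon_000036F-snap-gene-9.17 had 2.30, 2.14 and 2.28 CPM in GB against 113.9, 156.1 and 111.8 CPM in IL. It was lower in GB by 5.82 ± 0.44 on the log2 scale (a log2 difference of -5.82, edgeR adjusted p = 5.61e-08), and the GB females were nearly identical. KZS01917 had 1.81, 1.54 and 1.49 CPM in GB against 25.6, 21.1 and 22.2 CPM in IL (log2 difference -3.82 ± 0.30 SE, edgeR adjusted p = 4.51e-08). For both, the 3 IL females were alike and far above every GB female.

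These 4 gene models held the same order on full diet. KZS08956 ranged from 284.5 to 383.3 CPM over the 8 full-diet GB females and from 0.914 to 6.23 CPM over the 8 full-diet IL females. KZR97674 ranged from 115.3 to 188.9 CPM in full-diet GB and from 1.05 to 4.82 CPM in full-diet IL. The prediction maker-falcon_000036F-snap-gene-9.17 had 1.39 to 5.39 CPM in full-diet GB and 72.7 to 175.3 CPM in full-diet IL. KZS01917 had 0.899 to 2.50 CPM in full-diet GB and 15 to 23.1 CPM in full-diet IL. No female of either diet fell into the range of the other clone.

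**Figure D3:**
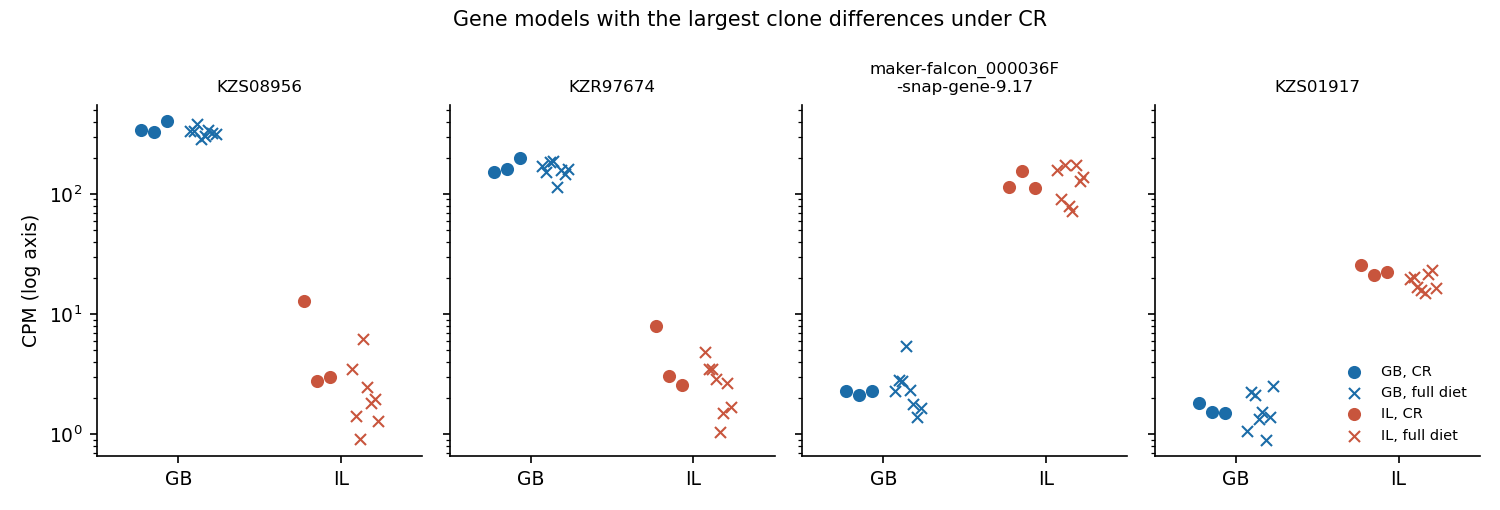
CPM (log axis) of the gene models with the largest clone differences under CR among those with at least 10 reads in each CR female; circles are single CR females, crosses single full-diet females (control, BHB and NMN), and colours are clones. The clones do not overlap on either diet.

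Some gene models were detected in 1 clone and not in the other. Under CR, 23 gene models had at least 10 reads in each GB female and 0 reads in all 3 IL females, and 17 had at least 10 reads in each IL female and 0 in all 3 GB females. With 1 female fewer to meet the rule the counts grew: the GB set numbered 42 without IL CR replicate 1 and 35 without IL CR replicate 3, and the IL set 29 without IL CR replicate 1, 27 without GB CR replicate 3 and 26 without GB CR replicate 1. All 40 were of low abundance, with means of 0.891 to 8.95 CPM in GB for the first set and 1.04 to 6.70 CPM in IL for the second. An absence of reads limits the level rather than showing that a transcript is lacking: with 3 reads over the 3 libraries as the limit, the ratios were at least 10.2-fold to at least 102.1-fold in the first set and at least 12.97-fold to at least 84.3-fold in the second. These limits cover counting error only.

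The most abundant of those detected in GB was 1 of 5 rows with the ID KZS02672 (row 4), with 106, 114 and 111 reads in GB and 0 in each IL female, at least 102.1-fold higher in GB. Over all 5 rows of this ID together the log2 difference was 1.97. The prediction maker-falcon_000079F-snap-gene-2.45 had 128, 95 and 66 reads in GB and 0 in IL, at least 89.1-fold higher in GB. Of those detected in IL, KZS08270 had 0 reads in GB and 155, 48 and 31 in IL, so that IL CR replicate 1 held most of its 234 reads. Row 1 of the 3 rows of KZS05613 had 0 reads in GB and 82, 89 and 57 in IL, at least 82.2-fold lower in GB.

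The full-diet females bear on these absences directly. All 23 gene models of the GB set had reads in each of the 8 full-diet GB females, and 17 of the 23 had at least 1 read in some full-diet IL female, with at most 9 reads over all 8. All 17 of the IL set had reads in each of the 8 full-diet IL females, and 14 of them had at least 1 read in some full-diet GB female, with at most 10 over all 8. The row of KZS05613 had 464 reads in full-diet IL and 0 in full-diet GB. For most of the 40, then, the low clone was near the limit of detection rather than without reads in every female of the series.

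IDs that occur on several rows of the table differed more often than others. Of the 3927 tested gene models whose ID is on 1 row, 737 differed (18.8%), and of the 1038 whose ID is on several rows, 417 did (40.2%). The second kind was less abundant, with a median of 2.71 CPM against 32.7 CPM. Reads of near-identical copies can be divided between rows, so these values are uncertain for each row by itself. Of 266 IDs with more than 1 tested row, 68 had at least 2 rows that differed; in 48 of these all such rows differed in one direction, and in 20 they went in opposite directions.

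When the rows of these 20 IDs were summed, 15 no longer differed and 5 did. Their median absolute log2 difference was 0.36, as it was over all tested gene models. The highest and lowest row of an ID lay 4.79 log2 units apart in the median. The 20 were chosen for rows that went in opposite directions, which favours a small sum and a wide distance between rows. Among the 5, named after their values were seen, KZS03926 had a summed log2 difference of 0.51 (edgeR adjusted p = 0.000118). KZS20690 had one of 2.36 (edgeR adjusted p = 1.45e-09). The ID KZR98343, chosen after its values were seen, was 1 of the 15 whose sum no longer differed, and had a good depth. Its row 1 had 79.5, 76.9 and 81.2 CPM in GB and 123.0, 132.4 and 117.9 CPM in IL (log2 difference -0.65 ± 0.08 SE, edgeR adjusted p = 1.23e-05). Its row 2 had 63.0, 51.1 and 55.9 CPM in GB and 11.1, 13.1 and 10.7 CPM in IL (log2 difference 2.28 ± 0.22 SE, edgeR adjusted p = 3.93e-07). Summed, the rows had 142.5, 127.9 and 137.1 CPM in GB and 134.0, 145.5 and 128.6 CPM in IL (log2 difference -0.0005 ± 0.094 SE, edgeR adjusted p = 0.999). In each row the clones were apart in all 6 females, while in the sum they overlapped.

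KZR97869, also chosen after its values were seen, was another of the 15 IDs whose sum no longer differed, at lower counts. Its row 1 had 20, 27 and 25 reads in GB and 47, 44 and 60 in IL, and its row 2 had 21, 14 and 22 in GB and 3, 0 and 1 in IL. The log2 differences were -1.15 ± 0.31 and 3.61 ± 0.73 (SE, edgeR adjusted p = 0.00931 and 0.00153). The call of row 1 was lost without GB CR replicate 1 (adjusted p = 0.0588), and row 2, with 4 IL reads in all, had a log2 difference of 4.83 without IL CR replicate 1. Summed, the rows had a log2 difference of -0.36 ± 0.27 (adjusted p = 0.431). The sequences of the copies were not analysed here.

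The next question was whether the clones differ in another way under CR than on full diet. In the fit of all 8 groups the number of gene models that differed between clones was 1154 under CR (23.2%), 1335 in control (26.9%), 1201 in BHB (24.2%) and, with 2 females a side, 945 in NMN (19%). To compare diets without shared libraries, the 6 CR libraries and the 16 full-diet libraries were fitted apart. This gave 816 gene models (19.2% of 4260) under CR and 1931 (39.4% of 4895) on full diet. They shared 740, which is 90.7% of the first list and 38.3% of the second, and all 740 had the same sign in both.

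Of the 1931 found on full diet, 1629 could be measured in the CR libraries alone, and 1518 of these (93.2%) had the same sign there. Their median log2 difference, taken in the direction of the full-diet difference and with gene models at 0 set at their limit, was 0.78 under CR and 0.90 on full diet. It was smaller under CR for 1080 of them (66.3%); they were chosen for their full-diet values, which favours larger values there. In the reverse direction, 804 of 815 gene models found under CR (98.7%) had the same sign on full diet. Across the 4256 gene models measured in both sets, which are not independent replicates, the 2 log2 differences had a Pearson r of 0.893 and a Spearman rho of 0.708, given as a description; the sets share no library but share the 2 genomes.

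**Figure D4:**
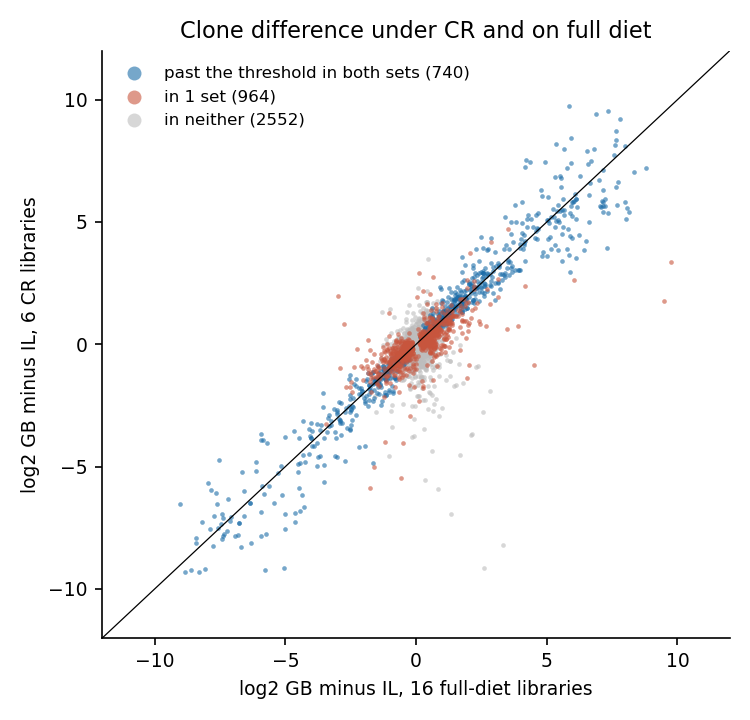
Log2 difference of GB minus IL in the 6 CR libraries (vertical) against that in the 16 full-diet libraries (horizontal) for 4256 gene models, each set fitted apart; the line marks equal differences and colours mark how many of the sets passed the threshold. The 740 gene models that passed in both lie in the upper right and lower left quadrants.

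A test of the difference between diets themselves gave 0 calls in edgeR and a small number in DESeq2. For the clone difference under CR minus that in control, 0 of 4965 passed in edgeR (0%), and the smallest adjusted p was 0.1. At an unadjusted edgeR p under 0.05 there were 411 (8.28% of those tested), of which 145 were positive and 266 negative. For CR minus the mean of the 3 full-diet groups 0 passed as well (0%, smallest edgeR adjusted p 0.268). Here 350 (7.05%) had an unadjusted edgeR p under 0.05, 136 positive and 214 negative. DESeq2 called 26 and 15. In edgeR, 4 passed against control without IL CR replicate 1, 4 without GB control replicate 1 and 1 without GB CR replicate 3, and 1 passed against full diet without GB CR replicate 3 and 1 without IL CR replicate 2. Of the 26 in DESeq2 against control, 24 were negative, that is, GB was lower relative to IL under CR than in control. Among those 24, GB measured lower under CR than in control in 24 and IL measured higher in 18. The 24 were chosen for a negative value in these same libraries, which favours a lower GB and a higher IL. The same counts over all tested gene models were not made. The median standard error of these differences was 0.42 against control and 0.35 against full diet, or a 95% interval of 0.82 and 0.68 log2 units to either side for a gene model with the median standard error. These are widths of single intervals and not the sizes at which a difference passes after adjustment.

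Of the 1154 gene models that differed under CR, 873 also differed in control in the same direction, 278 did not pass in control and 3 passed with the opposite sign. Of the 278, 243 had the same sign in control and the test of the difference from control passed 0 of the 278 in edgeR and 6 in DESeq2, KZS19569 among those 6. The 3 with opposite signs were KZR97438, KZS15417 and row 1 of KZS13699, of which KZS15417 and the row of KZS13699 were named after their values were seen; their differences between diets had edgeR adjusted p of 0.1, 0.287 and 0.144, and DESeq2 adjusted p of 3.65e-05, 0.000204 and 0.000747. KZS15417 had 2.72, 3.50 and 1.23 CPM in GB under CR, 81.5, 8.83 and 9.48 CPM in IL under CR, 76.0 to 1095 CPM in GB control and 13.6 to 130.7 CPM in IL control. Its IL value under CR rested on replicate 1.

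The gene models with the smallest p in each direction are given although they did not pass in edgeR. KZS13187 had 496.4, 682.4 and 328.9 CPM in GB under CR and 518.8, 865.7 and 1303 CPM in IL under CR, where the clones overlapped. In control it had 4411, 3867 and 5512 CPM in GB and 792.4, 699.1 and 1382 CPM in IL, with every GB female above every IL female. The clone difference was -0.83 ± 0.44 under CR and 2.26 ± 0.46 in control (log2, SE), and the difference under CR minus the mean of the 3 full-diet groups was -2.86 ± 0.54 (edgeR adjusted p = 0.268; DESeq2 adjusted p = 6.2e-05). Within GB it was lower under CR than in control (log2 difference -3.19 ± 0.48 SE, edgeR adjusted p = 0.00428), and within IL the difference was -0.10 ± 0.44 (adjusted p = 0.949).

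KZS21268, an abundant gene model, had 3002, 3126 and 3634 CPM in GB under CR and 3537, 5822 and 4621 CPM in IL under CR. In control it had 6423, 5990 and 7321 CPM in GB and 3085, 3827 and 3141 CPM in IL. GB was thus above IL in every control female, and under CR its values lay at or below those of IL with a slight overlap. The clone difference under CR minus that in control was -1.49 ± 0.28 (log2, SE, edgeR adjusted p = 0.125; DESeq2 adjusted p = 0.000204; edgeR adjusted p = 0.0372 without IL CR replicate 1). Within GB it fell under CR (log2 difference -1.02 ± 0.20 SE, edgeR adjusted p = 0.0178).

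KZR97438 had the smallest p of all in this test. It had 10.7, 7.43 and 10.97 CPM in GB under CR against 15.6, 21.4 and 15.7 CPM in IL under CR, and 19.1, 25.1 and 29.1 CPM in GB control against 10.0, 8.97 and 13.1 CPM in IL control. The clones did not overlap under CR or in control, and their order was reversed. In the other full-diet groups they overlapped, with 11.4 to 18.7 CPM in GB and 11.02 to 16.4 CPM in IL with BHB, and 12.7 and 16.7 CPM in GB against 22.6 and 15.2 CPM in IL with NMN. The clone difference was -0.86 ± 0.25 under CR (log2, SE, edgeR adjusted p = 0.0179) and 1.19 ± 0.25 in control (adjusted p = 0.00151), and the difference between them was -2.05 ± 0.35 (edgeR adjusted p = 0.1). Against the mean of the 3 full-diet groups it was -1.19 ± 0.29 (edgeR adjusted p = 0.349). The difference from control passed in DESeq2 (adjusted p = 3.65e-05) and, in edgeR, without IL CR replicate 1 (0.0386), without GB control replicate 1 (0.0262) and with no low-count filter (0.0283).

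**Figure D5:**
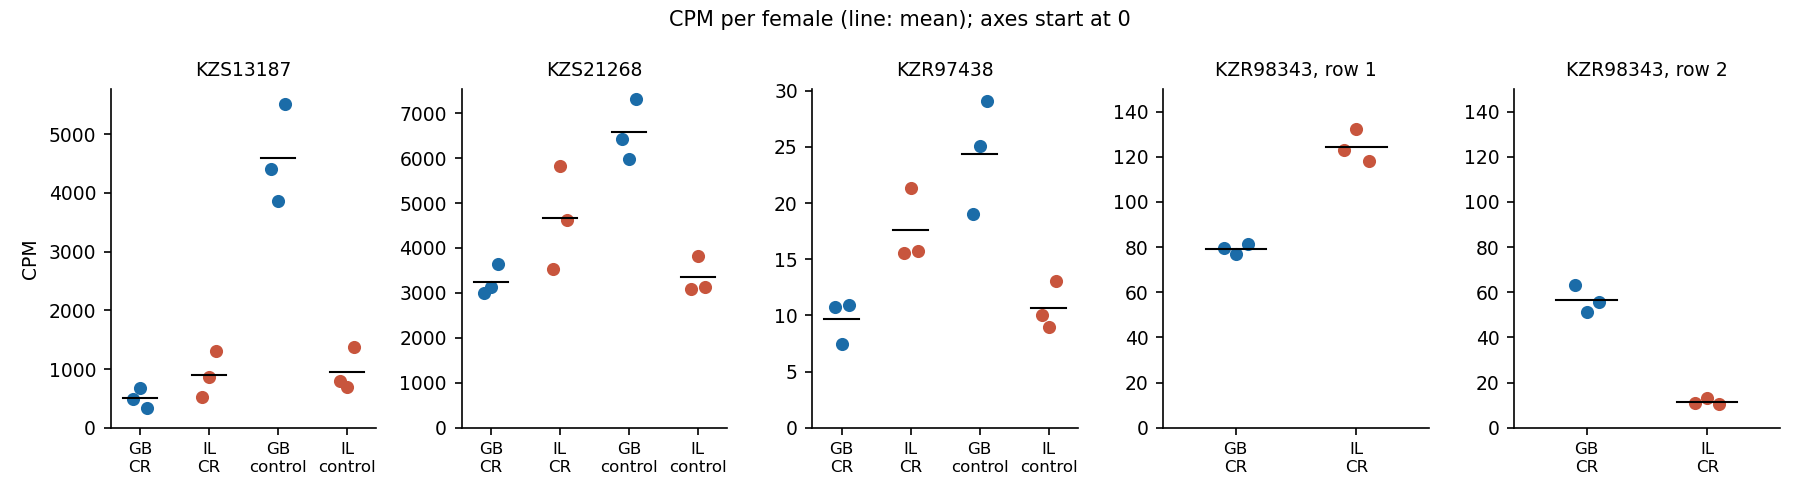
CPM of single females (points) and group means (lines), on axes that start at 0. Left, KZS13187, KZS21268 and KZR97438 under CR and in control, with GB above IL in every control female and not under CR; right, the 2 rows of the ID KZR98343 under CR, with GB lower in row 1 and higher in row 2.

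The gene models with a positive difference between diets moved less. KZS18936 had 317.9, 319.0 and 309.8 CPM in GB under CR, 368.1, 323.3 and 320.1 CPM in IL under CR, 209.3 to 235.4 CPM in GB control and 309.3 to 385.1 CPM in IL control, so that GB under CR lay near the IL level (difference between diets 0.54 ± 0.14, log2, SE; edgeR adjusted p = 0.312; DESeq2 0.0473). KZS02484 had 58.8, 48.5 and 58.5 CPM in GB under CR and 18.1, 13.2 and 12.6 CPM in IL under CR, against 33.4 to 43.5 CPM in GB control and 17.7 to 21.5 CPM in IL control (0.89 ± 0.23, edgeR adjusted p = 0.312). KZS20778 had 30.9, 29.9 and 27.4 CPM in GB under CR and 114.2, 80.7 and 90.2 CPM in IL under CR, with 15.9 to 21.6 CPM over the 8 full-diet GB females and 86.7 to 100.8 CPM over the 8 full-diet IL females (0.61 ± 0.15 against full diet, edgeR adjusted p = 0.349). Row 2 of KZS13633 had 23.3, 27.7 and 21.8 CPM in GB under CR and 36.1, 24.9 and 22.4 CPM in IL under CR, with 11.7 to 21.7 CPM over the full-diet GB females and 27.7 to 36.0 CPM over the full-diet IL females (0.88 ± 0.23 against full diet, adjusted p = 0.402). In each of the 4, the GB females under CR lay above every full-diet GB female. For row 2 of KZS13633 the margin was narrow (21.76 against 21.66 CPM). The 4 were chosen for a positive difference in these libraries, which favours high GB values under CR.

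The response to CR inside each clone was small beside the distance between clones. In the same fit 51 gene models differed between CR and control in GB (1.03%) and 61 in IL (1.23%), against the 1154 between clones under CR. The library numbers of the clones are interspersed within the CR group, whereas no full-diet library has a number from 17 to 22, so that diet and any step these libraries shared cannot be told apart.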

How the data were processed

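Per the labels, total RNA (Qiagen RNeasy) went into strand-specific NEBNext Ultra II Directional libraries. The deposited values are raw counts, which the labels describe as sense reads. STAR, FastQC, DESeq2 and Trim Galore 0.4.5 are named in the submitters' processing notes. The sources used here give neither the counter nor the genome build or annotation. Samples were grouped by their title letters; L was read as the low-food group by elimination.

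Rows with 1 ID were kept apart and numbered. Gene models were kept with filterByExpr over 8 clone-by-treatment groups (minimum count 10, minimum total 15), scaled by TMM and fitted in edgeR 4.0.16 with its quasi-likelihood F test (robust, R 4.3.3) over all 22 libraries, with 8 group means and no replicate block; the biological coefficient of variation was 33%. CPM use TMM-scaled library sizes. Standard errors come from the log2 difference and its F statistic. Intervals are 95% (1.96 standard errors). The code was run on simulated counts in which some gene models changed in GB under CR only, without other clone differences. That run does not show how many differences the tests missed in the real libraries. All pairs of CR females of a clone differed beyond sampling noise (smallest chi-square over its degrees of freedom, 47.5). P-values measure the spread between females of 1 isolate; their cohorts go back to 3 stock females per clone.

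Named gene models were the 2 largest differences per direction among those past the threshold, without overlap, with at least 10 reads in each CR library and an ID on 1 row; the 2 most abundant per clone among those detected in 1 clone; and, for the tests between diets, the 2 with the smallest p per direction at a mean of at least 5 CPM, since none passed. Others are marked as chosen after their values were seen. The rule's lists of named gene families had no members, as no ID could be given a name. The comparisons, lists and rules were chosen with earlier results of these data known. Alternatives were DESeq2 1.42.0, other scalings, filters and thresholds, fewer groups, a replicate block, summed rows and left-out libraries.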

Additional observations from a re-analysis of the deposited data

Results flagged for a closer look

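The clone difference of KZR97438 ran one way in every female under CR and the other way in every control female, with a log2 difference of -0.855 under CR. The difference between diets did not pass in edgeR (adjusted p = 0.1). Against the mean of the 3 full-diet groups, where the clones overlapped with BHB and NMN, it was smaller (-1.19, adjusted p = 0.349). Dixon's criterion for a single far value was not applied, since each group held 2 or 3 libraries.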

How the results depend on the processing

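The count of gene models that differed between the clones under CR stayed within 1.5 times of 1154 under all alternatives but one: with a replicate block in the 6 CR libraries alone it was 626 (304 beyond 2-fold, against 560). With the replicate block over all libraries it was 1133 (543 beyond 2-fold). Same-numbered GB and IL females had correlations of deviations of -0.04, -0.09 and 0.07 under CR, and of 0.05, -0.42 and -0.58 in control. Between CR and control within a clone they were -0.05, 0.04 and 0.08 in GB, and -0.28, 0.06 and -0.45 in IL. No label says that the numbers pair females, and they were not taken to do so. The block was shared by both clones, so it cannot model a pairing within a clone. In the CR libraries alone without the block the count was 816. Leaving out 1 library gave 929 to 1031 (473 to 505 beyond 2-fold). For the difference between CR and control, where 0 passed, DESeq2 called 26, the fit with no low-count filter 3 and a fit without 5 libraries at 1 end of the largest within-group axis, an arbitrary choice made after seeing the data, 1; leaving out 1 library gave 0 to 4. Against the 3 full-diet groups DESeq2 called 15, the fit without those 5 libraries 2, and leaving out 1 library gave 0 to 1. This last test uses all groups, so a fit of fewer groups was not run for it, and DESeq2 was not run for the test beyond 2-fold. Gene models detected in GB alone numbered 23, but 47 with at least 5 reads per library, 10 with at least 20 and 42 when 1 read was allowed in IL; in IL alone 17, 37, 10 and 33. Without 1 library they numbered 24 to 42 (GB; 42 without IL CR replicate 1, 35 without IL CR replicate 3) and 21 to 29 (IL; 29 without IL CR replicate 1, 27 without GB CR replicate 3, 26 without GB CR replicate 1), since fewer libraries must be at 0 or at 10 reads. The share of full-diet differences with the same sign under CR was 96.7% at an adjusted p of 0.01 and 96.9% when chosen in the control libraries, and 90.6% to 95% without 1 CR library. The difference in the share of the 10 most abundant gene models (0.327 percentage points) ranged from -1.24 (without IL CR replicate 1) to 1.51 (without IL CR replicate 3). Summing the rows of an ID turned row 2 of KZR97869 to a log2 difference of -0.36 and row 2 of KZR98343 to -0.00049, by construction. Of 356 values of named gene models under alternatives, 340 kept direction and side of the threshold, 10 passed it newly, 4 lost it and those 2 turned. Depth limits the least abundant class most.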
